A study of Mus musculus with 6 samples.

Results

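The receptor gene Gipr, whose product binds the gut hormone GIP (glucose-dependent insulinotropic polypeptide), was examined here in the mouse testis together with 9 other genes of the incretin hormone system, with and without a working Gipr gene. The 10 genes are the receptors Gipr, Glp1r, Glp2r and Gcgr, the peptide genes Gip, Gcg and Adcyap1, and the proteases Pcsk1, Pcsk2 and Dpp4. They were taken by gene name in the deposited array files, where they are 10 of 34844 names and are read by 13 of the 55681 probes that are not controls, with at least 1 probe for each gene. Whole testes came from C57BL/6 mice aged 8 weeks, 3 of genotype GIPR KO (Gipr-/-) and 3 wild type (Gipr+/+), with 1 Cy3-labelled array per animal. The labels do not name the deleted part of the gene, nor whether the wild-type animals were littermates, and the knockout is not described as limited to a cell type.

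Incretins are gut hormones released after a meal that raise insulin secretion. GIP and glucagon-like peptide 1 (GLP-1) act through receptors of class B, the secretin-like family of G protein-coupled receptors, which raise cAMP. Glucagon, GLP-1 and GLP-2 are cut from a single precursor encoded by Gcg: the convertase made by Pcsk2 favours glucagon, and that made by Pcsk1 favours GLP-1, GLP-2 and mature GIP. Dipeptidyl peptidase 4, the product of Dpp4, ends the action of GIP and GLP-1 by removing their first amino acids. In the testis, cAMP drives both steroid synthesis in Leydig cells and the activation of sperm.

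The arrays read RNA through 60-base probes, and 4 of the probes are shown because their sequence or position bears on how their readings are taken. Glp1r is read by a pair of overlapping probes that start at positions 1280 and 1285 of its transcript and lie at chr17:31073256-31073315 and chr17:31073261-31073320 (mm9, the build of the files). They share 55 aligned bases, of which 3 differ, shown in capitals.
Glp1r probe A_55_P2016471: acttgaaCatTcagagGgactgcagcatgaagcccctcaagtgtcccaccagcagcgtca
Glp1r probe A_55_P2132089: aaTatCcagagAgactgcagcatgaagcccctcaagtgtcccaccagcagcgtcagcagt
Counted from the 5′ end of the second probe, with its own base first, the differences are T3C, C6T and A12G. Which letters match the transcript of these mice was not determined, since no genome was used here.

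By their coordinates, the Gip probe and 1 of the Glp2r probes cross an intron, so they are written for spliced RNA. The 60 bases of the Gip probe extend over 1222 bases of chromosome 11 (95886745 to 95887966, mm9), and those of the Glp2r probe over 9679 bases (67525830 to 67535508).
Gip probe A_52_P313098: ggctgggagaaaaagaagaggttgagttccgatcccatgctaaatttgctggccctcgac
Glp2r probe A_51_P125882: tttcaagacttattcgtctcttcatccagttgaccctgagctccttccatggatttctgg

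Values are given first as processed signal, the background-corrected brightness of a spot on a linear scale, which compares 1 probe between arrays and not different probes with each other. Differences are knockout minus wild type in log2 signal after subtraction of each array's 75th percentile, with a moderated standard error (SE), and were tested with limma over 38884 probes, with p adjusted by the Benjamini-Hochberg method and a threshold of 0.05. A probe was tested when Feature Extraction, the scanner software, flagged it as well above background in every animal of 1 genotype or of both. Between 70.6% and 76.0% of spots had that flag, and 0 were saturated. All 6 arrays are on 1 slide in a single scan, the knockout in row 1 and the wild type in row 2, so an effect of position on the slide and one of genotype cannot be told apart. The number of arrays, 3 per genotype, limits the precision. In whole testis, fewer cells of a type and less RNA per cell cannot be told apart. Spermatid, spermatocyte, spermatogonial, Sertoli and myoid markers were tested in full (6 of 6, 4 of 4, 4 of 4, 6 of 6 and 4 of 4), and Leydig markers for 5 of 6. To be tested, a marker needed the flag in 1 genotype only. The Sertoli marker Amh was near background, at 6.62 in wild-type replicate 3, where the lowest flagged signal was 7.49. The median of the Leydig cell markers, relative to each probe's mean over the 6 arrays, was -0.46 in knockout replicate 3. On the other arrays it was 0.00070 to 0.41. Star, Cyp11a1 and Cyp17a1 were lowest in knockout replicate 3, at 239, 2193 and 6897. Hsd3b1 was highest there, at 18181, while Lhcgr, at 37.1, lay within the range of the other arrays. No probe on the array was matched to Insl3, so it could not be tested.

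The testis gave signal well above background for 8 of the 10 genes. Of these, Adcyap1 passed in the knockout alone, on 3 knockout arrays and 0 wild-type arrays. Receptor RNA was read for all 4 receptors and RNA of both prohormone convertases was read, while the probes for Gip and Gcg, the incretin peptides themselves, were not well above background on any of the 6 arrays. By single probe, 7 of 13 were well above background on all 6 arrays and 3 on none, the third being a far 3′ probe of Pcsk2. Of the 55668 probes with a value on every array, 37292 were well above background on all 6 and 38884 were tested. Detection is thus common on these arrays, and the counts for the 10 genes do not set them apart. Of the 10 tested probes, 1 was called lower in the knockout, that of Gipr, and 0 were called higher. Over all 38884 tested probes, 0.0411% were called lower, 0.00514% higher and 0.0463% in either direction.

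**Figure D1:**
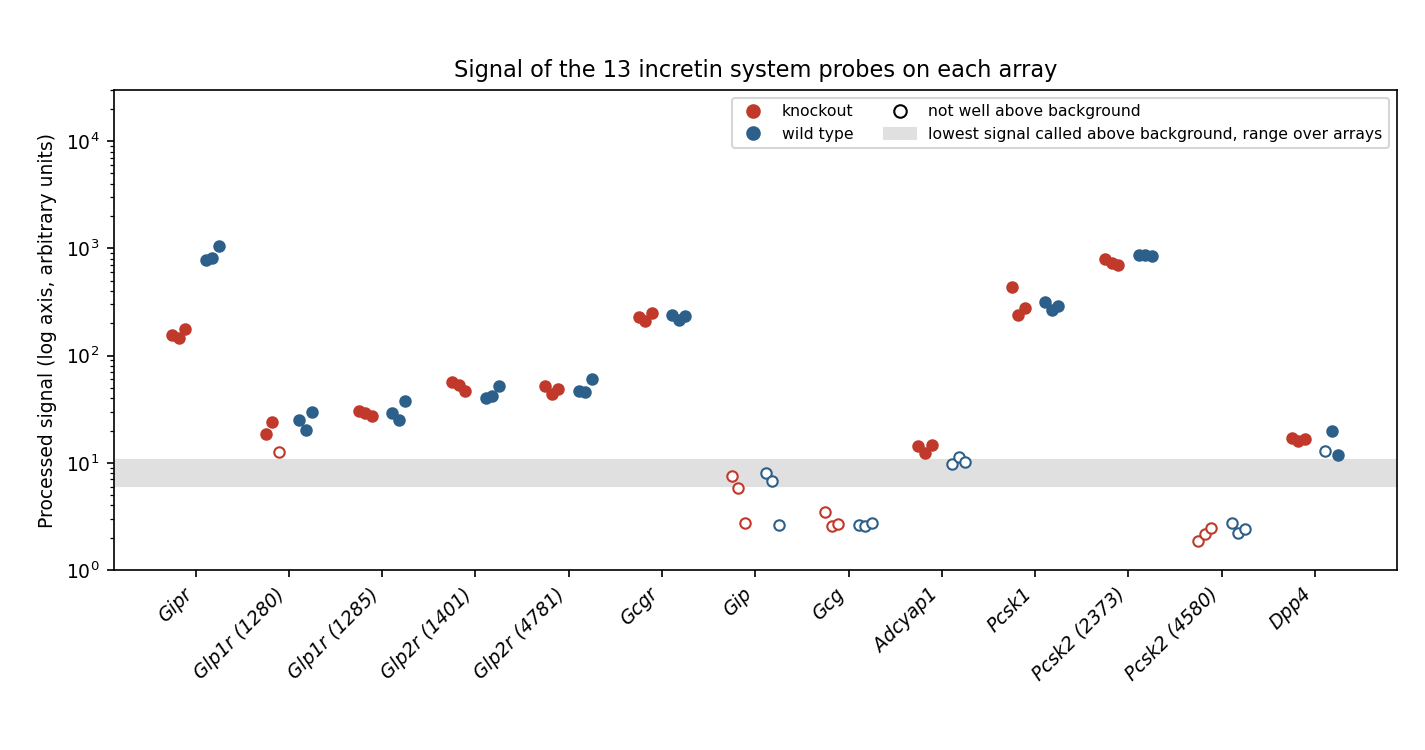
Processed signal (log axis, arbitrary units) of the 13 probes on each of the 3 knockout arrays (red) and 3 wild-type arrays (blue), with open circles where the probe was not well above background; numbers after a gene are the probe's start in the transcript, and the grey band is the lowest signal flagged above background (6.01 to 10.5 over the arrays). Only for Gipr are the genotypes widely separated, and the probes of Gip, Gcg and the far probe of Pcsk2 are open on all arrays.

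Gipr signal was lower in every knockout testis and did not vanish. The probe read 155, 145 and 176 in the 3 knockout testes, against 782, 820 and 1043 in those of the wild type. The highest knockout array is far below the lowest wild-type array, and the probe was well above background on all 6. On the log2 scale Gipr was at -2.26 ± 0.12 in the knockout against 0.22 ± 0.19 in the wild type (SD, n = 3 each), a difference of -2.48 ± 0.12 (SE; limma adjusted p = 0.0031). The knockout therefore held 17.9% of the wild-type signal, with a 95% interval of 14.7% to 21.8%. An exact two-sided permutation test over the 6 arrays gave p = 0.1, the smallest value that 3 against 3 allows. Without knockout replicate 3, the array with the low median of Leydig markers, the difference was -2.55. Without knockout replicate 2 it was -2.46 and no longer passed (adjusted p = 0.0636), while over all alternatives adjusted p ran from 5.5e-06 to 0.0636. The probe (accession NM_001080815) is the only one for Gipr, lies at chr7:19742486-19742545 (mm9) and starts at position 1720 of the transcript. The labels do not say whether it lies in the deleted part. The remaining signal is therefore not taken as a measure of intact receptor RNA, and its source was not tested.

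No other incretin receptor passed the test in either direction. Glp1r, the GLP-1 receptor, gave low signal through both of its overlapping probes. Probe A_55_P2016471 read 18.6, 23.8 and 12.5 in the knockout against 25.3, 20.4 and 30.0 in the wild type. It was not well above background in knockout replicate 3, its lowest array, and the genotypes overlap. Probe A_55_P2132089 read 30.7, 29.1 and 27.1 in the knockout against 29.0, 24.9 and 38.1 in the wild type. Here all 3 knockout arrays lie within the wild-type range. The differences were -0.51 ± 0.27 and -0.07 ± 0.15 (log2, SE; limma adjusted p = 0.672 and 0.897). The knockout over wild-type ratio had 95% intervals of 0.449 to 1.10 and 0.743 to 1.22. Which probe matches the transcript was not determined, so the narrower interval of the second is not taken to bound the first. Leaving out 1 array moved the first probe's difference from -0.25, without knockout replicate 3, to -0.76, without knockout replicate 2, with limma adjusted p from 0.285 to 0.934 over the 6 fits. It was -0.14 with normexp, a background correction that shrinks differences between faint spots.

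Glp2r, the GLP-2 receptor known for its part in intestinal growth, was read by probes at positions 1401 and 4781 of its transcript. The junction-crossing probe read 56.4, 53.2 and 46.4 in the knockout against 39.9, 42.4 and 51.9 in the wild type. The probe near the 3′ end, at chr11:67519964-67520023, read 51.5, 43.9 and 48.3 in the knockout against 47.0, 45.7 and 60.6 in the wild type. Both pairs of groups overlap, and the probes point in different directions, at 0.21 ± 0.12 and -0.10 ± 0.11 (log2, SE; limma adjusted p = 0.680 and 0.805). Their ratios of knockout to wild type had 95% intervals of 0.949 to 1.41 and 0.784 to 1.12.

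Gcgr, the glucagon receptor, varied least over the 6 arrays among the 13 probes. Its probe at chr11:120400221-120400280 read 231, 212 and 249 in the knockout against 239, 216 and 234 in the wild type. The groups overlap almost fully, and the SD was 0.071 on the log2 scale. The difference was -0.0093 ± 0.074 (SE; limma adjusted p = 0.977), and the interval of the ratio, 0.878 to 1.12, leaves out any rise above 1.12-fold. Over the probes of the 3 other receptors, the highest upper bound on a rise in the knockout was 1.41-fold, from the junction probe of Glp2r. A p that misses the threshold does not show that the genotypes are alike. These bounds give the size of rise left room for by the fit of all 6 arrays. They shift with the arrays used: leaving out 1 array moved the difference of the Glp2r junction probe over 0.14 to 0.30.

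**Figure D2:**
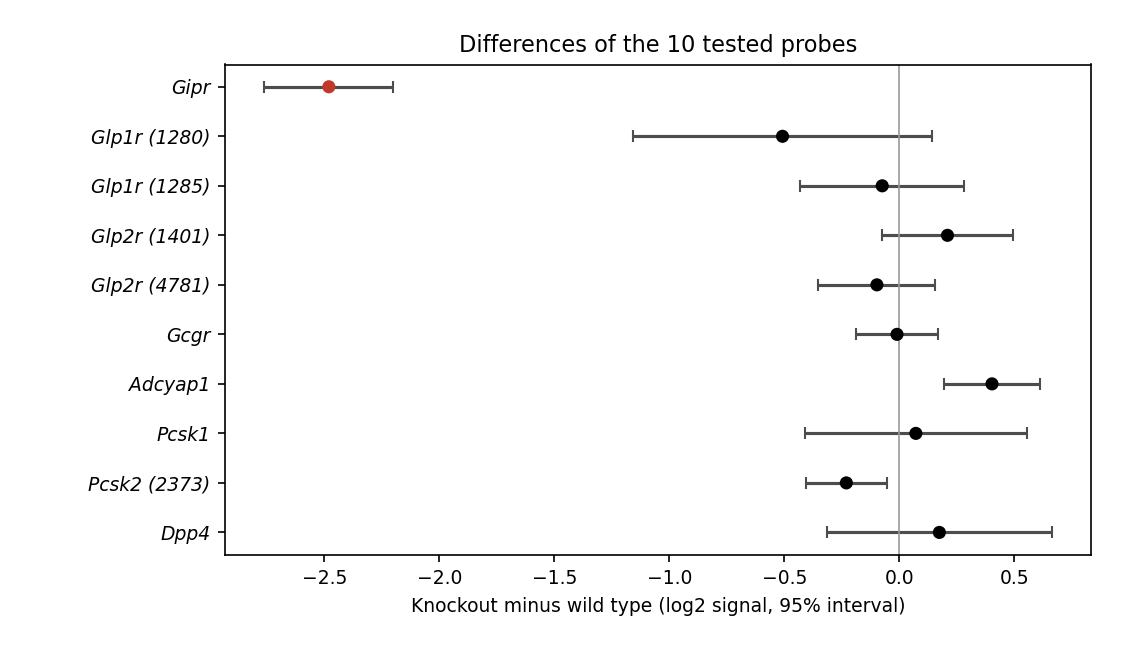
Difference knockout minus wild type in log2 signal for the 10 tested probes, with 95% intervals from limma; red marks the probe with an adjusted p under 0.05. Gipr stands at -2.48, while the other 9 differences lie between -0.51 and 0.40.

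The incretin peptides were not read well above background in either genotype. The Gip probe gave 7.59, 5.79 and 2.77 in the knockout against 8.01, 6.76 and 2.62 in the wild type. The scanner software's weaker flag, for a signal that is positive and significant against its own background, was passed on 4 of 6 arrays, replicates 1 and 2 of each genotype, and the flag for well above background on 0 of 6. These 4 readings lie above the 95th percentile of the negative control spots, which was 2.16 to 3.07 over the arrays, so the Gip probe gave faint signal in both genotypes. Replicate number is also the column on the slide, and the Gip signal fell from column 1 to column 3 in both genotypes. The part of slide position in this signal was not tested. Gcg, which encodes the precursor of glucagon, GLP-1 and GLP-2, has 10 spots per array, and their averages were 3.46, 2.57 and 2.70 in the knockout against 2.64, 2.57 and 2.75 in the wild type. Of its 60 spots over the 6 arrays, 1 was flagged as well above background. Negative control spots had median signals of 1.91 to 2.71 on the 6 arrays. The weaker flag was passed by at least 50% of the Gcg spots on 1 of 6 arrays, that of knockout replicate 1. For both genes no fold or test is given, and these readings do not show that the RNA is absent.

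Adcyap1, which encodes the neuropeptide PACAP, a further ligand of class B receptors that raises cAMP, was the only one of the peptide genes with signal well above background, and this flag was passed in the knockout alone. Its probe, at chr17:93604401-93604460, read 14.3, 12.4 and 14.7 in the knockout against 9.70, 11.3 and 10.1 in the wild type. The flag for well above background was passed in 3 of 3 knockout testes and 0 of 3 wild-type testes, while the weaker flag was passed on all 6 arrays. The probe therefore entered the test through the genotype where it was higher. The genotypes do not overlap, as was so for 7.84% of all tested probes with the knockout higher. The knockout mean was -5.78 ± 0.07 and the wild-type mean -6.18 ± 0.13 (log2, SD, n = 3 each), and the difference of 0.40 ± 0.09 did not pass (SE; limma adjusted p = 0.479). The measured ratio was 1.32, with a 95% interval of 1.15 to 1.53. A bound of "at least" that ratio would replace wild-type values below the lowest signal flagged well above background on their array, but all 3 lie above it, so the bound equals the measured ratio. With normexp the difference was 0.019, and over all alternatives adjusted p ran from 0.221 to 0.936.

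Both prohormone convertase genes gave signal on all 6 arrays. Pcsk2 was read at 790, 736 and 698 in the knockout against 871, 865 and 847 in the wild type by its probe at position 2373 of the transcript (chr2:143639649-143639708). All 3 knockout arrays lie below all 3 wild-type arrays, as was so for 5.54% of all tested probes with the knockout lower. The knockout held 85.3% of the wild-type signal, with a difference of -0.23 ± 0.07 (log2, SE; limma adjusted p = 0.631), which did not pass. Knockout replicate 3 was the lowest array, and without it the difference was -0.18. A probe for the same gene further along the transcript, at position 4580, read between 1.86 and 2.72 and was not well above background on any array. The reading of this gene therefore rests on the nearer probe alone, and why the probes differ was not tested.

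Pcsk1 varied more among the knockout testes than between genotypes. It read 436, 238 and 280 in the knockout against 318, 264 and 290 in the wild type (chr13:75269727-75269786). Knockout replicate 1 is the highest array and knockout replicate 2 the lowest, so the wild-type range lies inside that of the knockout. The difference was 0.07 ± 0.20 (log2, SE; limma adjusted p = 0.925), and without knockout replicate 1 it turned to -0.15. Of the fixed adipose markers, 3 of 5 were tested, and their median relative to each probe's mean was 0.78 on that same array, against -0.59 to 0.35 on the others. The adipose marker Fabp4 read 2770 there and 1611 in wild-type replicate 2, and 20.5 to 60.2 on the remaining arrays. Plin1 was highest on that array too, at 304 against 115 to 212 in the wild type, but Adipoq was not, at 2527 against 2267 to 2976 in the wild type. Lep and Cfd were not tested. The part of adipose tissue in the Pcsk1 reading was not tested.

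Dpp4, the protease that inactivates GIP and GLP-1, was near the limit of detection. It read 16.9, 16.0 and 16.6 in the knockout against 12.97, 19.9 and 11.8 in the wild type (chr2:62170062-62170121). The background flag was passed in 3 of 3 knockout testes and 2 of 3 wild-type testes, and the wild-type range encloses the knockout. The difference was 0.17 ± 0.20 (log2, SE; limma adjusted p = 0.815), with a ratio between 0.804 and 1.58. On chromosome 2 its probe lies 142.6 kb from that of Gcg, and the genes share a neighbourhood with Fap, a related peptidase.

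**Figure D3:**
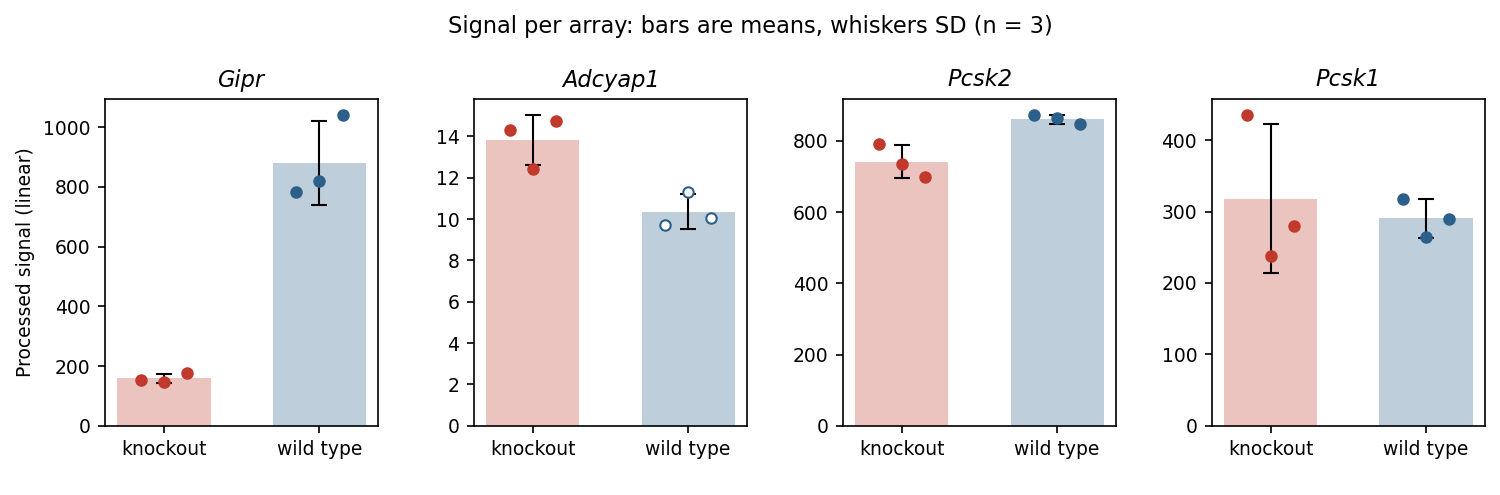
Processed signal (linear axes from 0, a scale of its own for each gene) of Gipr, Adcyap1, Pcsk2 (probe at 2373) and Pcsk1, with bars for the mean, whiskers for SD over 3 arrays and a point per array, open where not well above background. Gipr, Adcyap1 and Pcsk2 do not overlap between genotypes but only Gipr passed the test, and the Pcsk1 knockout arrays spread from 238 to 436.

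The 10 tested probes differed in how much they varied among animals. Within the wild type, their SD of log2 signal ran from 0.054 for Pcsk2 and 0.076 for Gcgr to 0.42 for Dpp4 and 0.25 and 0.28 for the Glp1r probes. Within the knockout it ran from 0.028 for Dpp4 to 0.39 for Pcsk1 and 0.51 for the first Glp1r probe. The median SE over all tested probes was 0.094. The SE of a difference ran from 0.07 for Gcgr and Pcsk2 to 0.20 for Pcsk1 and Dpp4 and 0.27 for the first Glp1r probe.

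The wider pathway and the genes close to Gipr were read through 97 further genes in 6 lists. Of these, 76 were tested, each by its brightest tested probe. None of the 76 passed in limma (lowest adjusted p = 0.212, for Eml2). An unadjusted limma p under 0.05 was reached by 5, against 7.66% of all tested probes. Among those 5, Eml2, Qpctl and Fbxo46 are genes close to Gipr. Among other class B receptors, their ligands and partners, 15 of 27 were tested, with 6 higher, 9 lower and a median of -0.04, against 0.0082 over all tested probes. Crhr1, a receptor for corticotropin-releasing hormone, read 276 to 287 in the knockout against 232 to 273 in the wild type, without overlap (0.19 ± 0.08, log2, SE; adjusted p = 0.649). Such a separation, with the knockout higher, was seen in 7.84% of all tested probes. Sct, the gene of the hormone secretin, gave 0.26 ± 0.15, and Vipr1, a receptor for vasoactive intestinal peptide and PACAP, -0.28 ± 0.18 (adjusted p = 0.688 and 0.696). Adcyap1r1, the receptor most selective for PACAP, gave -0.17 ± 0.27 (adjusted p = 0.868).

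Genes of prohormone processing were tested for 16 of 17, with 8 higher and 8 lower and a median of -0.0025. Qpctl, a Golgi glutaminyl cyclase whose gene lies close to Gipr, read 1195 to 1450 in the knockout against 1618 to 1712 in the wild type, without overlap (-0.34 ± 0.10, log2, SE; limma adjusted p = 0.622). Such a separation, with the knockout lower, was seen in 5.54% of all tested probes. The granule protein gene Chga gave -0.25 ± 0.10, the carboxypeptidase gene Cpd 0.12 ± 0.06 and its relative Cpz 0.41 ± 0.24 (adjusted p = 0.649, 0.657 and 0.690). Pcsk4, the convertase of male germ cells, gave -0.025 ± 0.071 (adjusted p = 0.926). Dipeptidyl and prolyl peptidases and their relatives, listed together with the metallopeptidases Dpp3 and Mme, which are not of the Dpp4 family, were tested for 11 of 11, with 5 higher, 6 lower and a median of -0.0062. Of these, Prepl gave 0.13 ± 0.06, Dpp6 -0.14 ± 0.10, Mme, the gene of neprilysin, -0.12 ± 0.09 and Dpp10 0.089 ± 0.076 (adjusted p = 0.654, 0.721, 0.725 and 0.752).

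Signalling genes downstream of the receptors were tested for 22 of 23, with 13 higher, 9 lower and a median of 0.029. The arrestin gene Arrb2 gave -0.17 ± 0.08, the G protein gene Gnal 0.18 ± 0.10, the cAMP-activated exchange factor gene Rapgef4 0.40 ± 0.25 and Adcy10, the soluble adenylyl cyclase needed for sperm motility, -0.12 ± 0.08 (log2, SE; limma adjusted p = 0.657, 0.676, 0.696 and 0.714). Gnas, the G protein subunit that links these receptors to adenylyl cyclase, gave 0.0097 ± 0.077 (adjusted p = 0.977). Transcription factors that control incretin genes in gut and islet were tested for 8 of 15, with 2 higher and 6 lower and a median of -0.05. Pax6, an activator of Gcg in islet cells, read 16.7 to 27.2 in the knockout against 27.4 to 42.3 in the wild type (-0.69 ± 0.25, limma adjusted p = 0.639). Its genotypes do not overlap, as was so for 5.54% of all tested probes with the knockout lower. The signal is low, and the lowest reading, 16.7, is that of knockout replicate 3. Gata6 and Hnf4a gave -0.13 ± 0.07 and 0.26 ± 0.23 (adjusted p = 0.686 and 0.768), and Pdx1, Pax4 and Isl1 were not tested.

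Of 5 genes close to Gipr on chromosome 7, the direct neighbours are Eml2 and Snrpd2. Eml2, of a family of microtubule-binding proteins, read 1163 to 1298 in the knockout against 1613 to 1821 in the wild type, without overlap (-0.51 ± 0.07, log2, SE; limma adjusted p = 0.212). Such a separation, with the knockout lower, was seen in 5.54% of all tested probes. Eml2 passed with the trend and robust options of eBayes (adjusted p = 0.0234). Snrpd2, of the spliceosome core, gave -0.077 ± 0.084, Fbxo46 0.14 ± 0.06 and the proton-sensing receptor gene Gpr4 0.12 ± 0.09 (adjusted p = 0.806, 0.644 and 0.725).

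**Figure D4:**
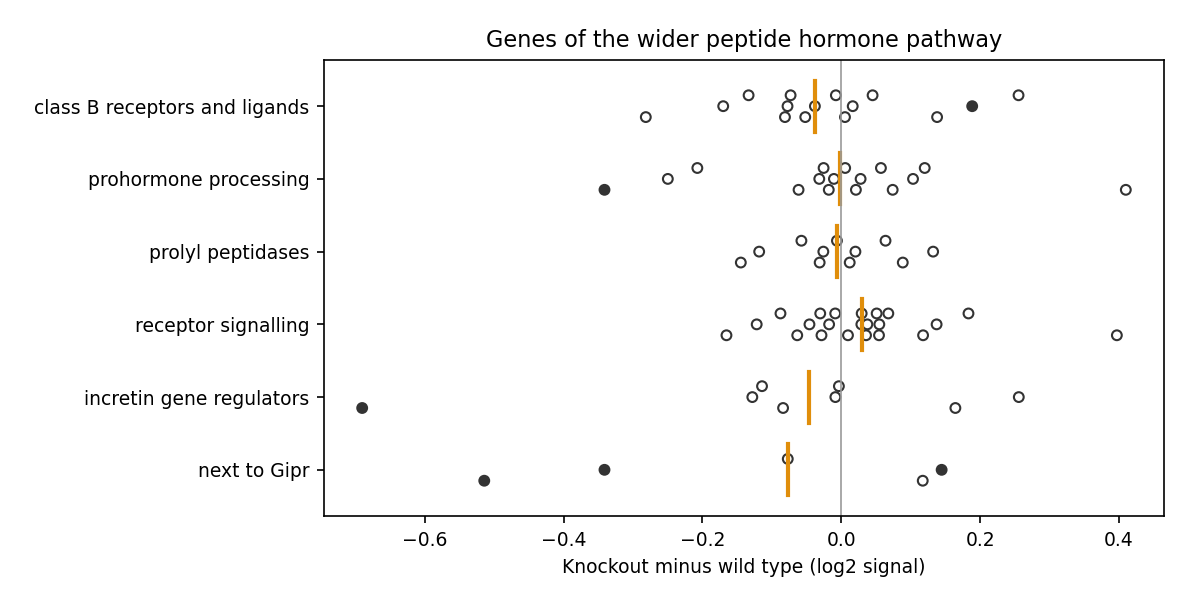
Difference knockout minus wild type in log2 signal for each tested gene of the 6 lists, that of genes close to Gipr among them, filled where the unadjusted p is under 0.05, with list medians as orange lines. The medians lie between -0.077 and 0.029, and the lowest single value is that of Pax6 at -0.69.

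The genes nearest to Gipr in pattern were found by the root mean square difference of log2 values, each probe centred on its mean over the 6 arrays. Only tested probes with a gene symbol, other than those of the incretin system, were ranked. Probes without a symbol, and those with predicted-gene or clone names such as Gm, LOC or Rik, were left out. Map4k1, a kinase gene of blood-forming cells, was nearest at 0.397, with 703, 614 and 627 in the knockout against 5760, 5921 and 6306 in the wild type (-3.22 ± 0.06, log2, SE; limma adjusted p = 3.34e-05). It was followed by the zinc finger gene Zfp93 at 0.546, the pregnancy-specific glycoprotein gene Psg17 at 0.552, the synaptic vesicle priming gene Unc13a at 0.596 and the zinc finger gene Zfp296 at 0.617. All of these but Unc13a, on chromosome 8, are on chromosome 7 like Gipr. Zfp93 and Zfp296 passed, at -1.44 ± 0.10 and -1.26 ± 0.07 (adjusted p = 0.026 and 0.00879), while Psg17 and Unc13a did not (adjusted p = 0.354 and 0.351). Unc13a failed the background flag in all 3 knockout testes. This likeness comes almost wholly from the step between genotypes over 6 arrays, and it is a description.

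**Figure D5:**
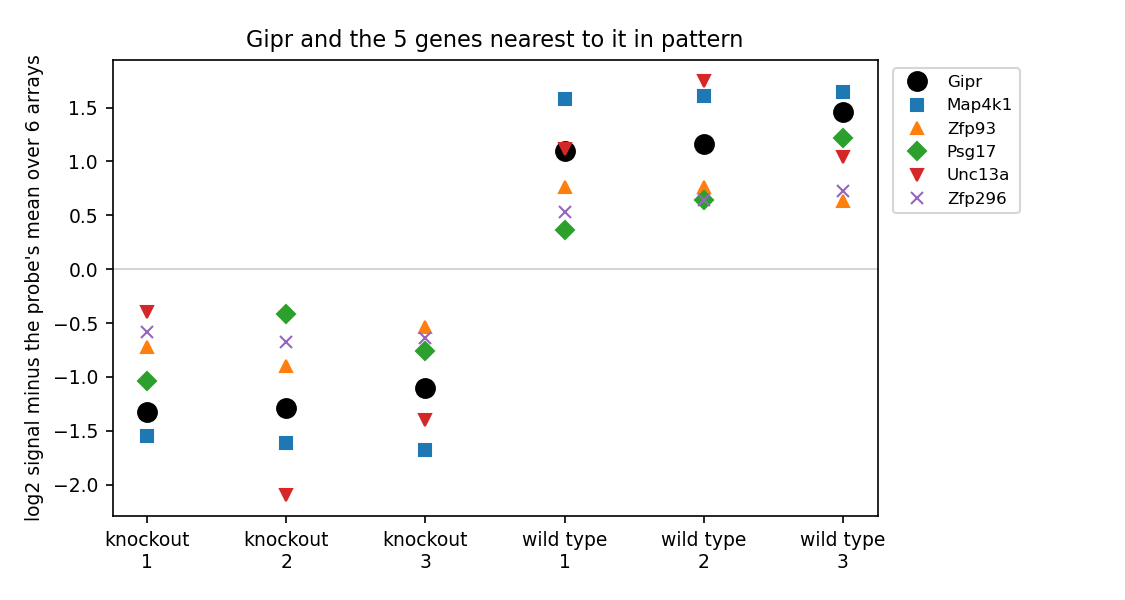
Log2 signal of Gipr (black) and the 5 genes nearest to it, each centred on its mean over the 6 arrays shown on the horizontal axis. Every gene lies below 0 on the 3 knockout arrays and above 0 on the 3 wild-type arrays, with the widest step for Map4k1.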

How the data were processed

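The deposited files are Agilent 1-colour arrays of design 028005, labelled from 100 ng of total RNA per the labels. Intensity values are processed signals that the authors made with Feature Extraction 10.7.3.1 (background-subtracted and spatially detrended, per the file headers). The authors also deposited a table of 46873 intensity values, equal to the processed signal times 1 factor per array that gives a median of 200. Background and outlier flags are those of the scanner software.

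Outlier spots (117 to 149 per array) were left out, log2 signals of a probe's spots averaged, and each array's 75th percentile subtracted. Genotypes were compared with limma 3.58.1 in R 4.3.3 (lmFit and eBayes, no covariates, two-sided), after a test on simulated data. Of 55681 probes, 26762 were named by accession, 3819 by current and 639 by older symbol in RefSeq's GRCm38.p6 table, and 24461 kept the files' name. The members and lists were chosen with earlier results of these data known. Named were all members, up to 4 genes of lowest p per list, and the 5 genes nearest to Gipr; Adcyap1r1, Pcsk4, Gnas, Pdx1, Pax4, Isl1 and the markers named were added after their values were seen. A gene that this rule names is not reported here. Alternatives changed the background correction, scaling, filter, unit of the fit, block, eBayes options, array weights, source of values and arrays used. At most 0.00169% of spots held equal values on a pair of arrays.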

Additional observations from a re-analysis of the deposited data

How the results depend on the processing

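Over all alternatives that tested them, 0 of 130 differences of the 9 tested probes other than Gipr passed, and 122 kept their direction. Direction turned for Glp1r (A_55_P2132089) with array weights (0.057) and without wild-type replicate 3 (0.075), Glp2r (A_55_P2073452) without wild-type replicate 3 (0.013), Dpp4 with array weights (-0.021), Pcsk1 without knockout replicate 1 (-0.15), and Gcgr without knockout replicate 1 (0.015), knockout replicate 2 (0.013) or wild-type replicate 1 (0.031). Leaving out 1 array moved these probes over -0.20 to 0.075 for Glp1r, -0.16 to 0.013 for Glp2r, -0.056 to 0.031 for Gcgr, -0.15 to 0.22 for Pcsk1 and 0.0062 to 0.41 for Dpp4. The Gipr difference lay between -2.55 and -2.37 when any 1 array was left out, and ended as a call without knockout replicate 2 (-2.46), where the count of member probes called lower was 0 against 1 in the other alternatives. Among the listed genes 1 was called lower with trend and robust, Eml2, a direct neighbour of Gipr.

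Over all probes, 16 were called lower and 2 higher. Leaving out 1 array gave 5 to 25 lower and 0 to 5 higher. The lower count was 6 with no filter on dim probes and 5 with the replicate block. The higher count was 7 with normexp, 11 with trend and robust and 8 with array weights, 0 with quantile normalization and with probes above background on all 6 arrays, and 1 with no filter, with the replicate block and with the authors' deposited table. Same-numbered arrays lie in the same slide column. The correlations of their deviations from the group mean were 0.058, -0.024 and -0.0027, which does not settle whether the animals were paired. With the block, the Gipr difference stayed at -2.48 (adjusted p = 0.0145). The number of members detected was 8, with Adcyap1 through the knockout alone, and 6 when all 6 arrays were required. Low signal limits Glp1r, Adcyap1 and Dpp4 most, and the Gip and Gcg probes were not well above background.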

Other observations

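Islet and gut hormone genes outside the incretin system were read with the same arrays. Of 6 fixed genes, 3 were tested. Ins2, an insulin gene that mice express in islets, read 214, 174 and 191 in the knockout and 185, 184 and 223 in the wild type, with overlap (-0.043 ± 0.088, log2, SE; limma adjusted p = 0.900). Ins1, the other insulin gene, read 37.4, 45.7 and 24.5 in the knockout and 52.3, 49.1 and 55.0 in the wild type, without overlap (-0.60 ± 0.24; limma adjusted p = 0.643). Such a separation, with the knockout lower, was seen in 5.54% of all tested probes. Cck, the gene of the gut hormone cholecystokinin, gave -0.59 ± 0.36 (adjusted p = 0.693), with its lowest value, 4.55, in knockout replicate 3. Sst, Ppy and Nts were not tested because they were not well above background on all arrays of either genotype.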
